A study of Mus musculus with 4 samples.

Results

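The plasma membrane and vesicular glutamate transporters of the retina, with the genes that recycle glutamate through glutamine, were examined in *rd7* and wild-type mouse retinas by RNA-seq. These are 8 genes, *Slc1a1*, *Slc1a2*, *Slc1a3*, *Slc1a7*, *Slc17a6*, *Slc17a7*, *Glul* and *Slc38a3*, taken by name from the 22095 loci listed, and each of them was found at 1 locus with a successful estimate in all 4 libraries. The rule names genes by function and uses no measured value. The *rd7* group consisted of 2 libraries from mice labelled as *Nr2e3* mutant on the strain C57BL/6J, and the wild-type group of 2 libraries from C57BL/6J mice. Nr2e3 is a transcription factor of rod development, and the hybrid photoreceptors of these mice carry features of both rods and cones. All mice were 3 weeks old and untreated as far as the labels say, and each library pooled 8 whole retinas from 2 female and 2 male mice. The mutation is present in every cell of the animal. Replicates of a genotype are pools of animals, and p-values measure the variation from pool to pool.

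Glutamate is the transmitter of photoreceptors, bipolar cells and ganglion cells. Vesicular transporters (VGLUT1, encoded by *Slc17a7*, and VGLUT2, encoded by *Slc17a6*) load it into synaptic vesicles, and sodium-driven transporters of the Slc1a family (the excitatory amino acid transporters, EAATs) clear it from the extracellular space. In Müller glia, glutamine synthetase, encoded by *Glul*, turns the glutamate that was taken up into glutamine, which leaves through carriers such as SNAT3, encoded by *Slc38a3* and can be turned back into glutamate in neurons.

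Of the 8 genes, *Slc1a2*, *Slc1a3*, *Slc1a1* and *Slc17a6* rose in *rd7* retinas and *Slc17a7* fell, while *Slc1a7*, *Glul* and *Slc38a3* did not pass the test. The rises ran from 1.32-fold for *Slc17a6* to 2.22-fold for *Slc1a2*. The test was limma on log2(FPKM + 0.1), fitted to all 12655 genes with a mean of at least 1 FPKM (fragments scaled to transcript length and to sequencing depth), with Benjamini-Hochberg adjustment over all of them and calls at an FDR (false discovery rate) of 5%. All 8 genes passed this filter. With the FPKM as deposited, 4 of the 8 genes were called higher, against 37.6% of all genes tested, and 1 was called lower, against 8.80% of all genes, so neither count stands far from its background. The median log2 fold change of the 8 genes was 0.31, and that of all genes tested was 0.15. After median-ratio scaling of the libraries, which brings the median of all genes to -0.0049, the same 4 genes were higher and the same gene was lower, against 19.7% of all genes higher and 19.6% lower, and the median of the 8 genes was 0.16. Both *rd7* values lay above both wild-type values in 6 of the 8 genes (57.1% of all genes) and below them in 1 (19.5%). In whole retinas, fewer cells of a type and less RNA per cell cannot be told apart.

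**Figure D1:**
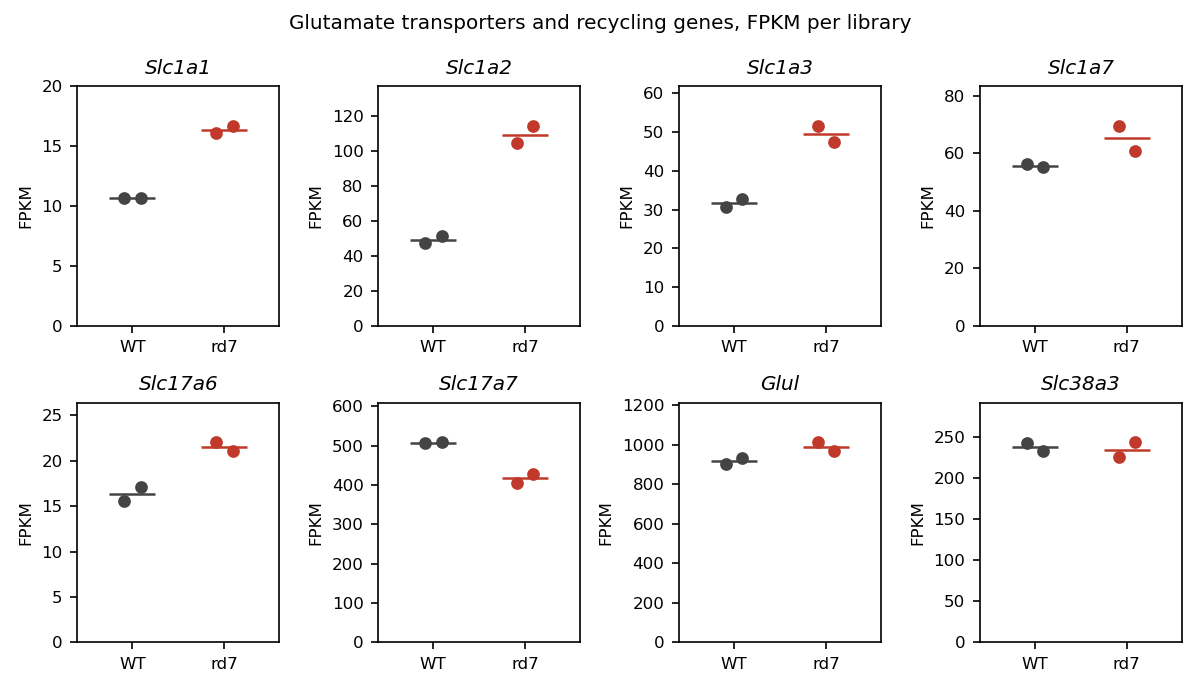
FPKM (vertical axes, linear, each from 0) of the 8 genes in the 2 wild-type libraries (grey points) and the 2 *rd7* libraries (red points), with a horizontal line at the mean of each genotype. The genotypes are apart in every panel but that of *Slc38a3*, and *Slc17a7* is the only panel in which both *rd7* points lie below both wild-type points.

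To set the gene with the largest rise beside the gene that fell, the 250 bases before a transcription start of *Slc1a2* and of *Slc17a7* are shown from RefSeq on GRCm38.p6. *Slc1a2* has 13 transcripts in the mm9 annotation, and other starts of it were not searched. The *Slc1a2* stretch lies at chr2:102706188-102706437 and the *Slc17a7* stretch at chr7:45163671-45163920, both on the forward strand. Capitals mark a match to AAGTCA, a short site of the kind bound by Nr2e3, on either strand.
Slc1a2: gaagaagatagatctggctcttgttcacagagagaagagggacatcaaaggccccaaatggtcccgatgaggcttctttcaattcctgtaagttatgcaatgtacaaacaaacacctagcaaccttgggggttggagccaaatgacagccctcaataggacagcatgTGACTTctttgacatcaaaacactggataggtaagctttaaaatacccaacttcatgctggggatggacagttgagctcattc
Slc17a7: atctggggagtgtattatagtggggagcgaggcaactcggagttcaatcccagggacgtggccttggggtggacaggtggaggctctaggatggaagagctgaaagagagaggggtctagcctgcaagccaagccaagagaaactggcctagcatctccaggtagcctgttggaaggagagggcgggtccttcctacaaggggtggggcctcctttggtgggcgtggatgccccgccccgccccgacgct

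The match in the *Slc1a2* stretch is on the reverse strand and begins 83 bases before that start, which need not be the first start of the gene. It was the only match among the 8 stretches found for 7 of the genes (*Slc17a6* has 2 starts in the table, and *Slc38a3* has none). AAGTCA occurs on either strand in 13.1% of all 32851 such stretches in the mouse genome. TAATCC, the core bound by the photoreceptor factor Crx, was found in 0 of the 8 and occurs in 6.25% of all. These matches describe the letters only.

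*Slc1a2* encodes EAAT2, also called GLT-1, which in the mouse retina is known from cones and bipolar cells. In mm9 the gene occupies chromosome 2, 102498840 to 102630941. It stood at 104 and 114 FPKM in *rd7* and at 47.3 and 51.4 FPKM in wild-type retinas, so that the genotypes were far apart. Its log2 fold change was 1.15 (limma adjusted p = 0.000505, standard error 0.07), higher than that of 98.5% of the genes tested. The call held in all 9 alternative fits to the 4 libraries, with log2 fold changes from 0.82 to 1.15, and in all 4 fits that left out a library.

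*Slc1a3* encodes EAAT1 (GLAST), the main glutamate transporter of Müller cells, and lies on chromosome 15 from 8584126 to 8660807 on the reverse strand. Its FPKM was 51.6 and 47.4 in *rd7* and 30.6 and 32.9 in wild-type retinas. Both *rd7* libraries were above both wild-type libraries, with a log2 fold change of 0.64 (limma adjusted p = 0.00175, standard error 0.07) or 1.56-fold. Correcting for the GC content and length of exons lowered the log2 fold change to 0.30, which was still called (adjusted p = 0.0187 from limma).

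*Slc1a1* encodes EAAT3 (EAAC1), a transporter of neurons that in the retina is known from amacrine, horizontal and ganglion cells. It had the lowest level of the 8 genes in both genotypes. Placed on chromosome 19 (28909656 to 28988450), it was measured at 16.1 and 16.7 FPKM in *rd7* and at 10.7 FPKM in each wild-type library. The log2 fold change was 0.61 (limma adjusted p = 0.00125, standard error 0.05), a rise close in size to that of *Slc1a3*. After correcting for GC content and length it was 0.33 and still called (adjusted p = 0.0101 from limma).

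*Slc1a7* encodes EAAT5, a transporter with a large chloride conductance at the terminals of photoreceptors and rod bipolar cells (chromosome 4, 107640939 to 107686137). It had an FPKM of 69.5 and 60.8 in *rd7* and 56.4 and 55.1 in wild-type retinas. The genotypes did not overlap, but the *rd7* pools differed from each other by more than the nearer of them differed from wild-type. The log2 fold change was 0.22 with a 95% interval from 0.043 to 0.40 (adjusted p = 0.0504 from limma), just short of the threshold. Without *rd7* replicate 2 it was 0.32 and called, in a fit in which more of all genes were called. With median-ratio scaling it was 0.068 and not called.

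**Figure D2:**
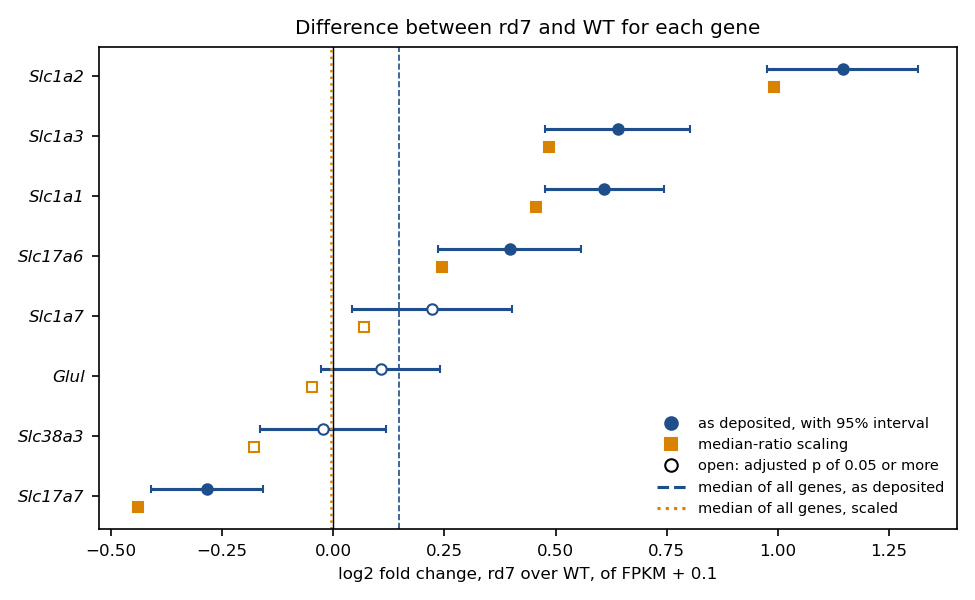
Log2 fold change of *rd7* over wild-type on the log2(FPKM + 0.1) scale (horizontal axis) for each of the 8 genes, from the deposited FPKM (blue circles, with 95% intervals) and after median-ratio scaling (orange squares), where open symbols did not pass the FDR of 5% and vertical lines mark the medians of all genes tested. *Slc1a2* stands highest at 1.15, and *Slc17a7* is the only gene called lower, at -0.28 as deposited and -0.44 scaled.

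The make-up of the Slc1a group can be read within each library, where the scaling of libraries cancels out. FPKM is a level per kilobase, so levels of different genes can be set side by side, but GC content and length can still shift a share. Corrected for both, the log2 fold changes were 0.82 for *Slc1a2*, 0.33 for *Slc1a1*, 0.30 for *Slc1a3* and 0.15 for *Slc1a7*. The shares below are not corrected. In wild-type retinas *Slc1a7* stood above *Slc1a2*, with 1.19 and 1.07 times its FPKM, and in *rd7* retinas below it, with 0.666 and 0.532 times. *Slc1a2* made up 43.2% and 47.8% of the summed FPKM of the 4 Slc1a genes in *rd7* and 32.6% and 34.3% in wild-type retinas. The share of *Slc1a7* was 28.8% and 25.4% against 38.9% and 36.7%, so that both shares moved without overlap. The share of *Slc1a3*, between 19.8% and 21.9%, overlapped between genotypes. *Slc1a1* made up 6.65% and 6.97% in *rd7* and 7.39% and 7.11% in wild-type retinas. The summed level was 242 and 239 FPKM in *rd7* and 145 and 150 FPKM in wild-type retinas. With 2 libraries a group, an exact permutation test of such a share cannot give a two-sided p under 0.333, and none was used.

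**Figure D3:**
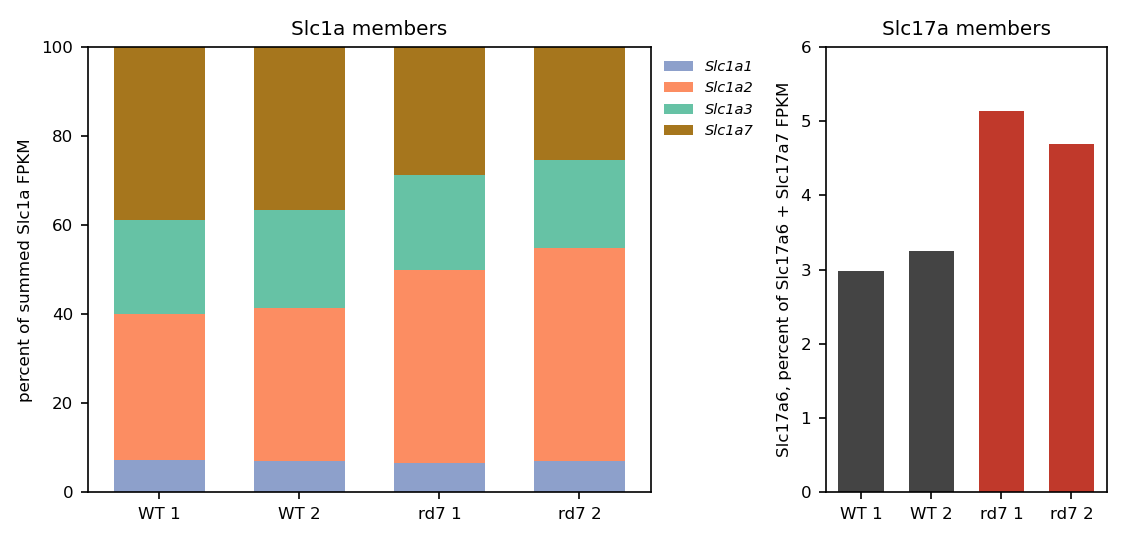
Left, percent of the summed FPKM of *Slc1a1*, *Slc1a2*, *Slc1a3* and *Slc1a7* that each gene takes in each library (stacked bars). Right, *Slc17a6* as a percent of the summed FPKM of *Slc17a6* and *Slc17a7* in each library (bars, wild-type grey and *rd7* red). The *Slc1a2* share is above 43% in both *rd7* libraries and below 35% in both wild-type libraries, and the *Slc17a6* share is 5.14% and 4.69% in *rd7* against 2.98% and 3.25%.

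The vesicular transporters moved in opposite directions. *Slc17a7* encodes VGLUT1, the vesicular transporter of photoreceptors and bipolar cells, and was the second most abundant of the 8 genes (chromosome 7, 52419291 to 52431508). Its FPKM was 406 and 427 in *rd7* and 507 and 508 in wild-type retinas, and both *rd7* values were lower. It fell by 0.28 on the log2 scale (limma adjusted p = 0.00767, standard error 0.05) and by 0.44 with median-ratio scaling. Only 7.38% of the genes tested had a log2 fold change as low or lower. A fit without the filter on low FPKM did not call it (adjusted p = 0.0912 from limma). Nor did fits without wild-type replicate 1 (-0.29) or wild-type replicate 2 (-0.28), in which fewer of all genes were called.

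*Slc17a6* encodes VGLUT2, which is known from ganglion cells among other cells. Which cells its reads came from was not tested. The gene is found on the same chromosome from 58877200 to 58926496. Its FPKM was 22.0 and 21.0 in *rd7* and 15.6 and 17.1 in wild-type retinas. All *rd7* values were higher, with a log2 fold change of 0.40 (limma adjusted p = 0.00587, standard error 0.07). This call was lost after correcting for GC content and length (0.076, adjusted p = 0.345 from limma) and without the filter on low FPKM (adjusted p = 0.0667 from limma). It was also lost without wild-type replicate 1 (0.33), a fit in which fewer of all genes were called. Within each library *Slc17a6* made up 5.14% and 4.69% of the summed FPKM of both vesicular transporters in *rd7*, and 2.98% and 3.25% in wild-type retinas. This share is within a library, so scaling a whole library cannot change it, but GC content and length can: corrected for both, the log2 fold changes of *Slc17a6* and *Slc17a7* were 0.076 and -0.28.

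The genes of the glutamine step in Müller cells had high levels in both genotypes. *Glul*, on chromosome 1 from 155747075 to 155756844, was the most abundant of the 8 genes. Its FPKM was 1011 and 965 in *rd7* and 904 and 931 in wild-type retinas. The log2 fold change was 0.11, with a 95% interval from -0.027 to 0.24 (adjusted p = 0.156 from limma), and it turned negative with median-ratio scaling (-0.048), without being called. Without *rd7* replicate 2 it was 0.14 and called higher, in a fit in which more of all genes were called.

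*Slc38a3* (chromosome 9, 107553486 to 107569705) was at 226 and 243 FPKM in *rd7* and 243 and 234 in wild-type retinas. The genotypes overlapped. The log2 fold change was -0.023, with a 95% interval from -0.16 to 0.12 (adjusted p = 0.762 from limma), and no fit called it.

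In wild-type retinas the order of levels was *Glul*, *Slc17a7*, *Slc38a3*, *Slc1a7*, *Slc1a2*, *Slc1a3*, *Slc17a6* and *Slc1a1*, and in *rd7* retinas the places of *Slc1a7* and *Slc1a2* were exchanged. The 2 libraries of one gene did not overlap with those of its neighbour in either order. From the estimated worth of 1 read, roughly between 2340 reads (*Slc1a1*, wild-type) and 119000 reads (*Glul*, *rd7*) lay behind a value. Counting error estimated from these was 2.07% of the value with the fewest reads. The estimate uses the length of all annotated exons of a gene, which can overstate reads, so it is not an upper bound. Exons of *Slc1a1*, *Slc1a2* and *Glul* overlap those of genes annotated on the other strand, and nothing states that strand was used, so their reads cannot be told apart there. The partner of *Slc1a1* (*4430402I18Rik*) was listed at no more than 0.54 FPKM and that of *Glul* (*5830403L16Rik*) at no more than 0.246 FPKM. The partner of *Slc1a2*, *Gm13872*, was not found by that name among the loci listed, so no level can be given for it.

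Beyond the 8 genes, the rest of the pathway was read from 5 lists of 60 genes, of which 53 were tested. The counts of all 5 lists stand beside 37.6% of all genes called higher and 8.80% called lower as deposited. With median-ratio scaling those shares were 19.7% and 19.6%. A count near these shares is no result about its list. Carriers of glutamine and other neutral amino acids had 6 of 9 tested genes higher and 0 lower, with a median log2 fold change of 0.27. *Slc38a1* encodes SNAT1, which brings glutamine into neurons, and rose most among all genes of the 5 lists. Its FPKM was 109 and 104 in *rd7* against 32.3 and 32.5, which is a log2 fold change of 1.71 (limma adjusted p = 5.98e-05, standard error 0.05). *Slc3a2*, the heavy chain of several amino acid exchangers, rose by a log2 fold change of 0.44 (adjusted p = 0.00218 from limma). *Slc38a2*, which encodes SNAT2, rose by 0.39 as deposited (adjusted p = 0.0244 from limma), a call that was lost with median-ratio scaling (0.24). Scaling in this way left 2 of the 9 genes called, *Slc38a1* and *Slc3a2*.

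Enzymes of glutamate and glutamine had 6 of 13 tested genes higher and 2 lower, with a median of 0.11, and 2 higher and 2 lower with median-ratio scaling. *Bcat1*, a branched-chain aminotransferase that makes glutamate in the cytosol, rose from an FPKM of 26.8 and 28.3 to 63.8 and 57.7, by 1.13 on the log2 scale (limma adjusted p = 0.000486, standard error 0.07). *Gad1* and *Gad2*, which turn glutamate into GABA, rose by 0.36 and 0.38 on the log2 scale as deposited, and neither was called with median-ratio scaling (0.21 and 0.22). *Gpt*, an alanine aminotransferase, fell by 0.50 on the log2 scale, and *Got2*, the mitochondrial aspartate aminotransferase, fell by 0.17 (adjusted p = 0.014 and 0.0275 from limma). Neither *Gpt* nor *Got2* was called without wild-type replicate 1 or without wild-type replicate 2, fits in which fewer of all genes were called.

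Of the glutamate receptors, 13 of 20 tested genes were higher and 0 lower, with a median of 0.41, and 9 were higher with median-ratio scaling. *Grik1*, a kainate receptor subunit of OFF bipolar cells, rose from an FPKM of 14.2 and 16.0 to 27.9 and 29.1, by 0.91 on the log2 scale (limma adjusted p = 0.000922, standard error 0.07). *Grm5*, a group I metabotropic receptor, rose by a log2 fold change of 0.90 (adjusted p = 0.00214 from limma). *Grin3a*, an NMDA receptor subunit with a mean near the filter, rose by 0.86 (adjusted p = 0.00858 from limma), a call lost once GC content and length were corrected for (0.50), without the filter on low FPKM, and without wild-type replicate 1 (limma adjusted p = 0.0602, 0.0578 and 0.0629). For *Grm5* the same correction gave 0.53, which was still called. After correcting for GC content and length 4 receptor genes were called higher and 0 lower, beside 1519 higher and 1852 lower of all 12258 genes in that fit. Fewer receptor genes were also called without wild-type replicate 1, as was so for all genes.

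Among the other glutamate carriers, 2 of 5 tested genes were higher and 0 lower, with a median of 0.081. *Slc17a8*, the VGLUT3 gene of a class of amacrine cells, had an FPKM of 5.94 and 7.25 in *rd7* and 3.87 and 3.89 in wild-type retinas, with a difference of 0.74 on the log2 scale (limma adjusted p = 0.00417, standard error 0.11). Its call was lost without the filter on low FPKM and without wild-type replicate 1 (limma adjusted p = 0.0722 and 0.0501), and correcting for GC content and length left 0.43, still called. *Slc25a12*, a mitochondrial aspartate-glutamate carrier, rose by 0.34 as deposited (adjusted p = 0.0173 from limma) and was not called with median-ratio scaling (0.19). Subunits of the sodium pump, which maintains the gradient that drives the Slc1a transporters, were higher in 4 of 6 genes and lower in 0 as deposited, with a median of 0.20, and with median-ratio scaling 0 were higher and 1 was lower. *Atp1b2* and *Atp1b3*, which encode beta subunits, rose by 0.19 and 0.22 as deposited (adjusted p = 0.0333 and 0.0227 from limma), and neither was called with median-ratio scaling (0.031 and 0.066).

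**Figure D4:**
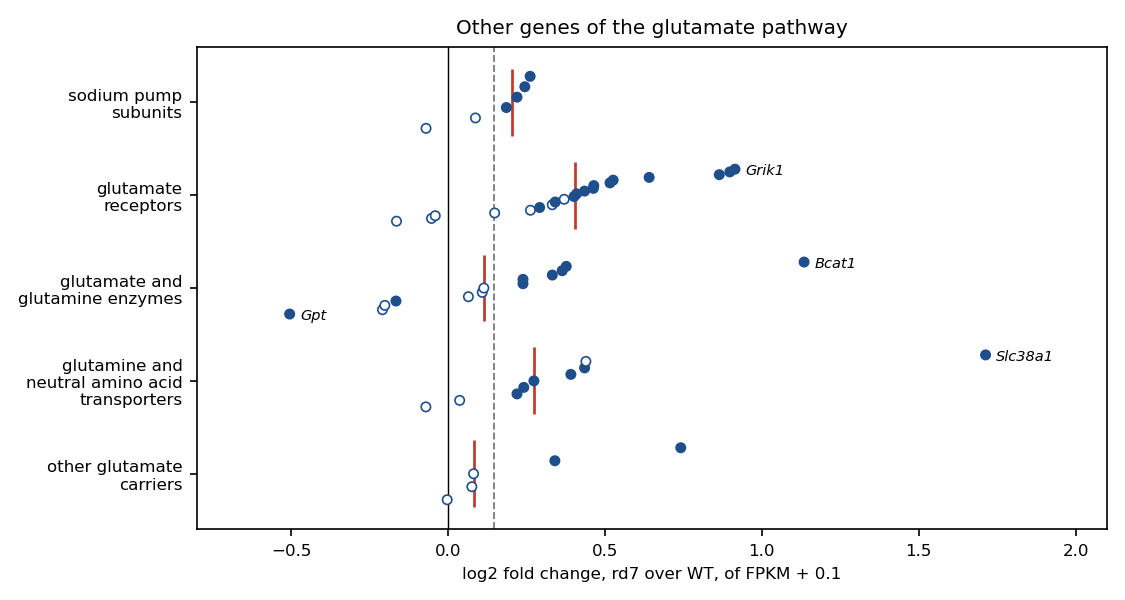
Log2 fold change of *rd7* over wild-type on the log2(FPKM + 0.1) scale (horizontal axis) for the tested genes of the 5 pathway lists (rows), with filled points at an FDR of 5% and open points above it. Red lines mark the median of each list and the dashed line the median of all genes tested, 0.15. *Slc38a1* (1.71) and *Bcat1* (1.13) stand apart at the right, and *Gpt* (-0.50) at the left.

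Marker lists of some, not all, of the cell types that hold these genes also differed between genotypes. The part of these cell types in the differences above was not tested. The counts here and in the next paragraph stand beside 37.6% of all genes called higher and 8.80% called lower as deposited. With median-ratio scaling those shares were 19.7% and 19.6%. As summed FPKM, the cone list was at 4517 and 4809 in *rd7* and 1453 and 1497 in wild-type retinas, with 8 of 10 genes higher and 0 lower, and the rod list at 7716 and 8428 against 10550 and 10760, with 3 of 6 genes lower and 0 higher. The bipolar list, which shares *Grik1* and *Grm6* with the receptor list, was at 799 and 664 against 562 and 532 (7 of 9 genes higher, 0 lower). The Müller cell list was at 1182 and 1163 against 1041 and 1079 (5 of 9 higher, 0 lower). The amacrine list, which shares *Gad1*, *Gad2* and *Slc17a8* with the lists above, was at 223 and 241 against 196 and 202 (5 of 7 higher, 0 lower). The ganglion cell list overlapped between genotypes, at 740 and 659 against 675 and 694, with 1 of 7 genes higher and 0 lower. With median-ratio scaling the counts were 1 higher and 1 lower for the amacrine list, 0 and 1 for the ganglion cell list, 4 and 1 for the Müller cell list, 6 and 0 for the bipolar list, 8 and 1 for the cone list, and 0 and 3 for the rod list.

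Other lists covered astrocytes, vessels, immune cells and neighbouring tissues. The astrocyte list was at 22.3 and 40.0 FPKM in *rd7* and 17.6 and 19.5 FPKM in wild-type retinas (1 of 3 higher), with *Pax2* at no more than 0.136 FPKM in any library. *Gfap* was at 10.3 and 28.1 in *rd7* and 7.59 and 8.14 in wild-type retinas, so *rd7* replicate 2 stood apart. The pigment epithelium list was at 59.9 and 56.0 against 34.5 and 21.0 (3 of 4 higher), the microglia list at 8.26 and 8.91 against 5.77 and 6.13 (2 of 3 higher), and the endothelium list at 47.8 and 33.4 against 27.2 and 29.9 (1 of 5 higher), with none lower in these 3 lists. The lens list overlapped between genotypes, at 12.5 and 29.6 against 24.2 and 52.7 (0 of 3 called), and the blood list was lower, at 76.7 and 161 against 271 and 317 (3 of 5 lower). *Nr2e3* itself was at 2493 and 1589 FPKM in *rd7* and 385 and 394 FPKM in wild-type retinas, which differ by 2.35 on the log2 scale (limma adjusted p = 0.0011, and 0.0513 without the filter on low FPKM). Its *rd7* pools differed more than those of any of the 8 genes.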

How the data were processed

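The authors sequenced polyA RNA as 1 read of 50 bp per fragment, mapped it to mm9 (TopHat 1.4.1 per the submitters' processing notes) and deposited FPKM per gene and library from Cufflinks 1.3.0, each with a status. FPKM divides out transcript length and depth, not library composition. Their comparison table (pooled FPKM, fold changes, p-values) was not used. Columns were matched to samples by title. The annotation behind the FPKM is not given in the sources used here.

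The table lists 22095 loci, and the 262 whose estimate failed in any library were excluded. Genes with a mean of at least 1 FPKM were tested as log2(FPKM + 0.1) with limma (version 3.58.1, R 4.3.3). Variances were moderated by eBayes along a trend, tests were two-sided, and Benjamini-Hochberg adjustment ran over 12655 genes at an FDR of 5%, for 2 *rd7* against 2 wild-type libraries. The 0.1 added to each FPKM understates the change of low genes. The fit was tested on simulated data. Sums, shares and figures were computed in Python 3.11.15. Loci count their first base as 1.

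The libraries held an estimated 3.49e+07 to 3.56e+07 reads, taking the lowest values of single-transcript genes over 800 bp (0.02 to 0.036 FPKM times kb, a window chosen by eye) as the worth of 1 read. Counting errors drawn from it cover counting only.

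The members and lists were chosen with earlier results of these data known. Named are all members, *Nr2e3*, the 3 largest called rises and falls of each pathway list, and markers where a sentence is about their list, except that some of these genes are not reported here. *Atp1b2*, *Grm6*, *Glud1*, *Grm8*, *Gria3* and the antisense partners were named after their values were seen. Lists covered 5 pathway groups and markers of Müller cells, rods, cones, bipolar, ganglion and amacrine cells, astrocytes, pigment epithelium, microglia, endothelium, lens and blood. Alternatives were pseudocounts of 1 and 0.01, no filter, a mean of at least 5 FPKM, median-ratio scaling, quantile normalization, no variance trend, a replicate block, a spline correction for exonic GC content and length (93.8% of loci matched to an mm9 annotation), and leaving out each library. Promoters came from a RefSeq table.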

Additional observations from a re-analysis of the deposited data

How the results depend on the processing

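*Slc1a1*, *Slc1a2* and *Slc1a3* were called higher under all 9 alternatives and in all 4 fits that left out a library. Without the filter on low FPKM, *Slc17a6* (0.40) and *Slc17a7* (-0.28) lost their calls at an unchanged size, with 21833 genes tested, and 0 of the 8 genes were lower. *Slc17a6* was 0.076 and not called with the GC and length correction. *Slc1a7*, just short of the threshold, was called at 0.22 with a pseudocount of 0.01, at a mean of at least 5 FPKM and with a replicate block. *Glul* changed sign without a call, to -0.048 with median-ratio scaling, -0.020 after quantile normalization and -0.090 after correcting for GC and length. For each of these the cause was not tested.

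With a library left out, log2 fold changes ranged from 0.33 to 0.46 for *Slc17a6* and from -0.32 to -0.25 for *Slc17a7*. They ranged from 0.13 to 0.32 for *Slc1a7*, from 0.073 to 0.14 for *Glul* and from -0.078 to 0.032 for *Slc38a3*. The lone library left in a genotype is assumed to vary like the other genotype.

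Of the 33 pathway genes called, 16 were called with median-ratio scaling, 16 with quantile normalization, 13 without the filter and 10 after correcting for GC and length. Fewer of them were also called without wild-type replicate 1 or 2, as was so for all genes. With the GC and length correction *Glud1* (-0.018), *Grm8* (-0.066) and *Gria3* (-0.052) changed sign without a call.

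Over all genes, 4755 were higher and 1114 lower as deposited (81.0% of the calls higher), 2249 and 455 without the filter, 2492 and 2479 with median-ratio scaling (50.1%), 2350 and 2404 after quantile normalization (49.4%), and 1519 and 1852 once GC and length were corrected for (45.1%).

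Pairing by replicate number was checked: the deviations of same-numbered libraries had a correlation of -0.0265 over genes, so no shift common to them was seen. This cannot show whether same-numbered pools were collected or prepared together, which the sources used here do not state. A replicate block gave 5 of the 8 genes higher and 1 lower, and 4508 and 1091 of all 12655 genes.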
